A study of Homo sapiens with 6 samples.

Results

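AHNAK, the gene of a giant scaffold protein of the cell cortex, is described here together with its relative AHNAK2 and with annexin and S100 genes, among them ANXA2 and S100A10, whose protein complex AHNAK binds. The 10 genes AHNAK, AHNAK2, S100A10, S100A4, ANXA1, ANXA2, ANXA5, ANXA6, ANXA7 and ANXA11 were taken by symbol from the 56637 symbols of the count tables. They were chosen by function and with the measured fold changes of shKDM6B over shLuc in view, AHNAK among the highest, so their differences between the groups are a description and carry no test.

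RNA was sequenced from MM.1S, an established human line of multiple myeloma, a cancer of plasma cells. In the group shKDM6B (3 libraries) the cells carried a short hairpin RNA (shRNA) against KDM6B, which encodes a demethylase of histone H3. In the control group shLuc (3 libraries) they carried an shRNA against luciferase. Cells of both groups had been infected with lentivirus and kept under puromycin, and the labels give no other KDM6B hairpin, so the loss of KDM6B and any other effect of its hairpin cannot be separated.

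Annexins bind phospholipid membranes when calcium is present, and S100 proteins are small calcium-binding proteins that mostly act as dimers. S100A10 does not respond to calcium and joins ANXA2 at the inner face of the plasma membrane, where the C-terminal part of AHNAK docks on the complex. AHNAK, annexins and S100 proteins are known from the organisation of cortical actin and from the resealing of torn plasma membranes, and the ANXA2 and S100A10 complex is also known as a surface receptor of plasminogen.

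The libraries held 7952156 to 9848351 counts in shKDM6B and 7338393 to 8996159 counts in shLuc. KDM6B stood at 30.4, 32.3 and 35.1 CPM in shKDM6B replicates 1 to 3, against 56.2, 57.0 and 48.2 CPM in shLuc replicates 1 to 3 (CPM, counts scaled to library size by the TMM method). All 9 plasma cell markers checked were expressed, at a summed 2599.5 to 2929 CPM in shKDM6B and 2755 to 3013 CPM in shLuc; PRDM1 was higher, and CD38 and TNFRSF17 were lower. The summed fibroblast markers, of which COL1A1 had the most counts and LUM none, stood at 2.55, 3.94 and 0.908 CPM in shKDM6B replicates 1 to 3 and 1.51, 0.903 and 0.881 CPM in shLuc replicates 1 to 3. The summed T cell markers stood at 4.78 to 6.36 CPM in shKDM6B and 7.69 to 9.94 CPM in shLuc. Most of that sum was CD3E, which was lower (log2 fold change -0.59), while CD3D had 1 count over shKDM6B and 0 over shLuc. Some libraries held keratin transcripts, which belong to epithelium: the counts of KRT5, KRT14, KRT6A, KRT16 and KRT17 together were 173, 304 and 4 in shKDM6B replicates 1 to 3 and 55, 10 and 4 in shLuc replicates 1 to 3. The 3 libraries with the most, shKDM6B replicates 1 and 2 and shLuc replicate 1, are called the keratin libraries. Counts of changed genes are also given without them, which leaves 1 shKDM6B library against 2 shLuc libraries. In that fit the lone shKDM6B library is assumed to vary like the shLuc libraries, so a call lost there can come from the smaller number of libraries and says nothing about keratin.

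The promoters of AHNAK, which was higher in shKDM6B, and of both genes of its docking complex, which differed little between the groups, are shown. Each runs from 250 bases before to 50 bases after the RefSeq start (GRCh38.p14), on the minus strand, at chr11:62545777-62546076 for AHNAK, chr15:60397937-60398236 for ANXA2 and chr1:151993810-151994109 for S100A10. Capitals mark motifs found on either strand.
AHNAK: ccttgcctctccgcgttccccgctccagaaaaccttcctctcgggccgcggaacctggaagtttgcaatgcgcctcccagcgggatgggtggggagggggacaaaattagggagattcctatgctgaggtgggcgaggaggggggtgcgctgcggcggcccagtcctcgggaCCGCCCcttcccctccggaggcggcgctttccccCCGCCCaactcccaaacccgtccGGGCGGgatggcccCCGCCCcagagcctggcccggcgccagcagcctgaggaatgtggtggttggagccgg
ANXA2: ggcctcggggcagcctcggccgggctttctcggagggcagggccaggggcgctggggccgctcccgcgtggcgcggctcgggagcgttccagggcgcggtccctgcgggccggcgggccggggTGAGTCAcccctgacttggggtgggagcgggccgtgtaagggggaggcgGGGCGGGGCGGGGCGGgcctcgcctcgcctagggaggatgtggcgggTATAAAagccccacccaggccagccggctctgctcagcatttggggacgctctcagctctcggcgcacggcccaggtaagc
S100A10: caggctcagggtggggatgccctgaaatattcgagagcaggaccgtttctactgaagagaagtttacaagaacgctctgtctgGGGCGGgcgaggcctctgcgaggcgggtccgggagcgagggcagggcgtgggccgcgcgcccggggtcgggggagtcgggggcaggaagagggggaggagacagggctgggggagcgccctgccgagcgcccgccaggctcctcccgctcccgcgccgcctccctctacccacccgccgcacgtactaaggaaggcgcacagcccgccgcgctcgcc
The GC box, spelled GGGCGG, occurred 4 times in the AHNAK window, 3 times with overlaps in the ANXA2 window and 1 time in the S100A10 window, and 45.0% of all 35116 RefSeq windows of this length held it. The ANXA2 window also held an AP-1 motif, spelled TGANTCA and present in 7.71% of all windows. It further held a TATA box, spelled TATAAA and present in 11.5% of all windows. A CCAAT box, an E box, a cyclic AMP response element and an ETS motif were searched as well and were not found as letters in these 3 windows. The windows held 25 CpG for AHNAK, 32 for ANXA2 and 32 for S100A10, against a median of 14 over all windows and 0 for ANXA1. A match describes letters and does not show that a factor binds.

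Of the 10 genes, 8 had enough counts to be tested in the fit over all genes. At an adjusted p under 0.05, 1 of them was past the threshold as higher, 1 as lower and 6 were not past it. Over all 13839 genes tested 39.1% passed, 20.1% as higher and 18.9% as lower. The groups did not overlap for AHNAK, S100A10 and ANXA7, which were above in shKDM6B, and for AHNAK2, which was below; over all genes tested 48.4% did not overlap, 24.5% above and 23.9% below. The median log2 fold change was 0.0071 over the 8 genes and -0.0053 over all genes tested. Nothing is read from these shares, since the genes were chosen with the contrast known.

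AHNAK was about 5-fold higher after KDM6B knockdown. Its raw counts were 1515, 1974 and 2297 in shKDM6B replicates 1 to 3, against 304, 408 and 413 in shLuc replicates 1 to 3. Scaled for depth, it stood at 193, 236 and 232 CPM in shKDM6B replicates 1 to 3, against 41.7, 46.1 and 45.5 CPM in shLuc replicates 1 to 3. All shKDM6B libraries lay far above all shLuc libraries, and replicate 1 was the lowest of either group. The log2 fold change was 2.31 (SE 0.069, 95% interval 2.16 to 2.45), or 4.95-fold. The shKDM6B library nearly free of keratins, replicate 3, had 232 CPM, and without the keratin libraries, 1 library against 2, the log2 fold change was 2.34. The kit named in the labels does not mark strand, so reads of AHNAK and of transcripts annotated across it cannot be separated. In bulk RNA, more cells with AHNAK and more AHNAK RNA per cell cannot be told apart.

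AHNAK2, a second giant protein of the same family, was scarce and lower in shKDM6B. It had 25, 17 and 27 raw counts in shKDM6B replicates 1 to 3, against 28, 40 and 36 in shLuc replicates 1 to 3. Scaled, that was 3.18, 2.03 and 2.73 CPM in shKDM6B replicates 1 to 3, against 3.84, 4.52 and 3.97 CPM in shLuc replicates 1 to 3. The groups did not overlap, although shKDM6B replicate 1 and shLuc replicate 1 came close. The log2 fold change was -0.64 (SE 0.22, 95% interval -1.10 to -0.18), past the threshold. It was not past it without shKDM6B replicate 2 (-0.49), without shLuc replicate 2 (-0.57), without the keratin libraries (-0.63, 1 library against 2) or by DESeq2 (-0.64). AHNAK2 overlaps PLD4, a gene on the other strand that stood at 124 ± 3.1 CPM in shKDM6B and 134 ± 5.9 CPM in shLuc (SD, n = 3 each). Reads where these genes overlap may belong to either.

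**Figure D1:**
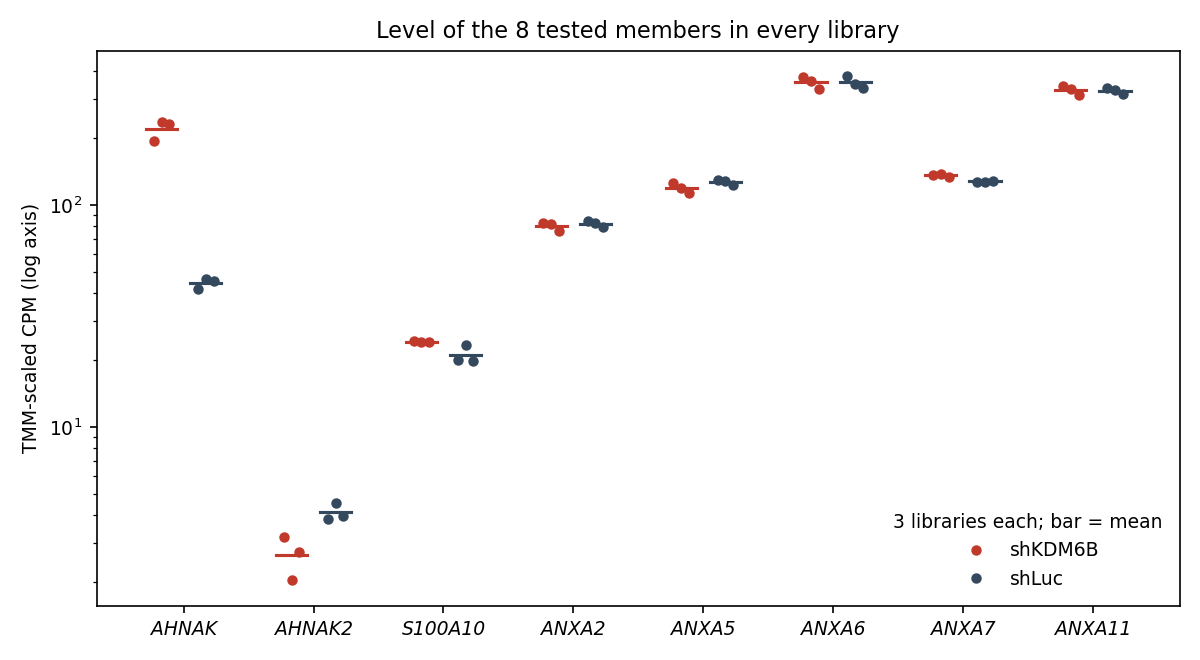
TMM-scaled CPM (log axis) of the 8 tested members by library, shKDM6B in red and shLuc in dark blue; points are libraries and bars are means of 3. AHNAK lies at 193 to 236 CPM in shKDM6B and 41.7 to 46.1 CPM in shLuc, AHNAK2 is separated the other way, and ANXA2, ANXA5, ANXA6 and ANXA11 overlap between the groups.

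S100A10, the S100 protein of the docking complex, differed little. It had 192, 201 and 238 raw counts in shKDM6B replicates 1 to 3, against 145, 207 and 180 in shLuc replicates 1 to 3. Scaled, it stood at 24.4, 24.0 and 24.0 CPM in shKDM6B replicates 1 to 3, against 19.9, 23.4 and 19.8 CPM in shLuc replicates 1 to 3. The shKDM6B libraries were nearly equal and lay just above shLuc replicate 2, the highest of its group. The log2 fold change of 0.20 (95% interval 0.014 to 0.38) was not past the threshold, but without shLuc replicate 2 it was, at 0.28.

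ANXA2, the annexin of the complex, was not past the threshold. It stood at 82.3, 82.1 and 76.3 CPM in shKDM6B replicates 1 to 3, against 84.7, 82.4 and 79.4 CPM in shLuc replicates 1 to 3. The groups overlapped, and shKDM6B replicate 3 was the lowest library. The 95% interval of its log2 fold change, -0.14 to 0.066, holds 0 and lies far below the AHNAK value. The retrocopies ANXA2P1, ANXA2P2 and ANXA2P3, which can take reads from ANXA2, had 5, 11 and 2 counts over the shKDM6B libraries and 2, 12 and 1 over the shLuc libraries.

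ANXA5, used in the laboratory to stain phosphatidylserine exposed on dying cells, stood at 125, 119 and 113 CPM in shKDM6B replicates 1 to 3, against 129, 128 and 123 CPM in shLuc replicates 1 to 3. Of the shKDM6B libraries replicate 1 lay within the shLuc range and the others lay below it. The log2 fold change of -0.094 (95% interval -0.19 to 0.0026) was not past the threshold, and without shKDM6B replicate 1 it was, at -0.13. ANXA7, an annexin that binds the calcium sensor sorcin, stood at 136, 138 and 134 CPM in shKDM6B replicates 1 to 3, against 127, 126 and 128 CPM in shLuc replicates 1 to 3. All shKDM6B libraries lay above all shLuc libraries by a small step, and the log2 fold change of 0.093 (95% interval 0.0068 to 0.18) was not past the threshold.

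ANXA6, an annexin with a doubled core that recruits the RAS regulator RASA1, stood at 376, 360.1 and 333 CPM in shKDM6B replicates 1 to 3, against 380.2, 350.3 and 337 CPM in shLuc replicates 1 to 3. The groups covered nearly the same range, and the 95% interval of the log2 fold change was -0.11 to 0.11. ANXA11, which tethers RNA granules to lysosomes, stood at 343, 331 and 314 CPM in shKDM6B replicates 1 to 3, against 335, 329 and 316 CPM in shLuc replicates 1 to 3. Its groups overlapped too, with an interval of -0.086 to 0.11. In shKDM6B the deepest library, replicate 3, had the lowest CPM of ANXA2, ANXA5, ANXA6, ANXA7 and ANXA11. In shLuc the shallowest, replicate 1, had the highest CPM of ANXA2, ANXA5, ANXA6 and ANXA11. ANXA7 went the other way in shLuc and was highest in replicate 3, the deepest of that group. These annexins carried many counts per base of exon, from 0.367 in ANXA2 to 1.12 in ANXA6, against 0.0598 in AHNAK. The part of depth in their values was not tested.

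**Figure D2:**
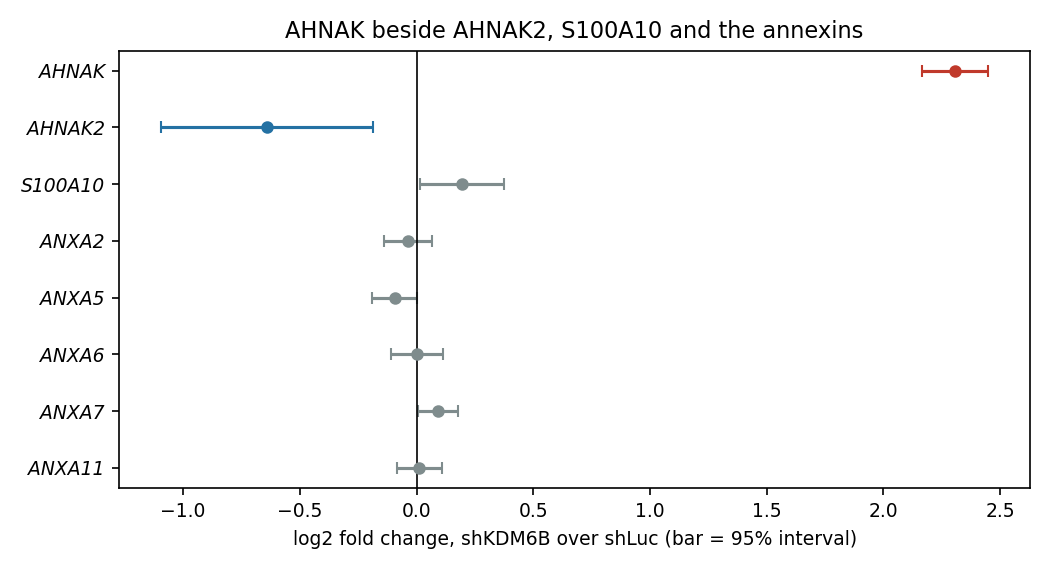
Log2 fold change of shKDM6B over shLuc of the 8 tested members; points are fitted values and bars are 95% intervals not adjusted for the number of genes. AHNAK lies at 2.31 and AHNAK2 at -0.64, and the other 6 lie between -0.094 and 0.20.

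ANXA1, an annexin induced by glucocorticoids, and S100A4, an S100 protein tied to cell motility, had too few counts to be tested. ANXA1 had 6, 25 and 2 raw counts in shKDM6B replicates 1 to 3, against 7, 9 and 2 in shLuc replicates 1 to 3. Most of its shKDM6B counts came from replicate 2, the library with the most keratin, and the groups overlapped. S100A4 had 4, 2 and 0 counts in shKDM6B replicates 1 to 3 and was at 0 in every shLuc library, where a count of 0 allows up to 0.333 to 0.409 CPM (3 counts per library, counting error only). S100A4 overlaps S100A3, which was at 0 in all libraries. Over the list of 14 epithelial markers 6 were tested, KRT5, KRT14, KRT19 and SFN were higher, KRT10 was lower and KRT1 was at 0 throughout. Over all genes tested 20.1% were higher and 18.9% lower. The groups overlapped for each of the 4 higher markers, and KRT5, KRT14 and KRT19 had 0, 3 and 0 counts in shKDM6B replicate 3. EPCAM, also tested, was lower in every shKDM6B library than in any shLuc library but was not past the threshold. The summed level of the list was 51.2 to 104 CPM in shKDM6B and 59.1 to 72.9 CPM in shLuc. KRT10 was the largest part of this sum in every library, at 46.9 ± 3.8 CPM in shKDM6B and 52.5 ± 1.4 CPM in shLuc (SD, n = 3 each). The sum is therefore a poor measure of the other markers. The part of epithelial cells in the ANXA1 and S100A4 counts was not tested.

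**Figure D3:**
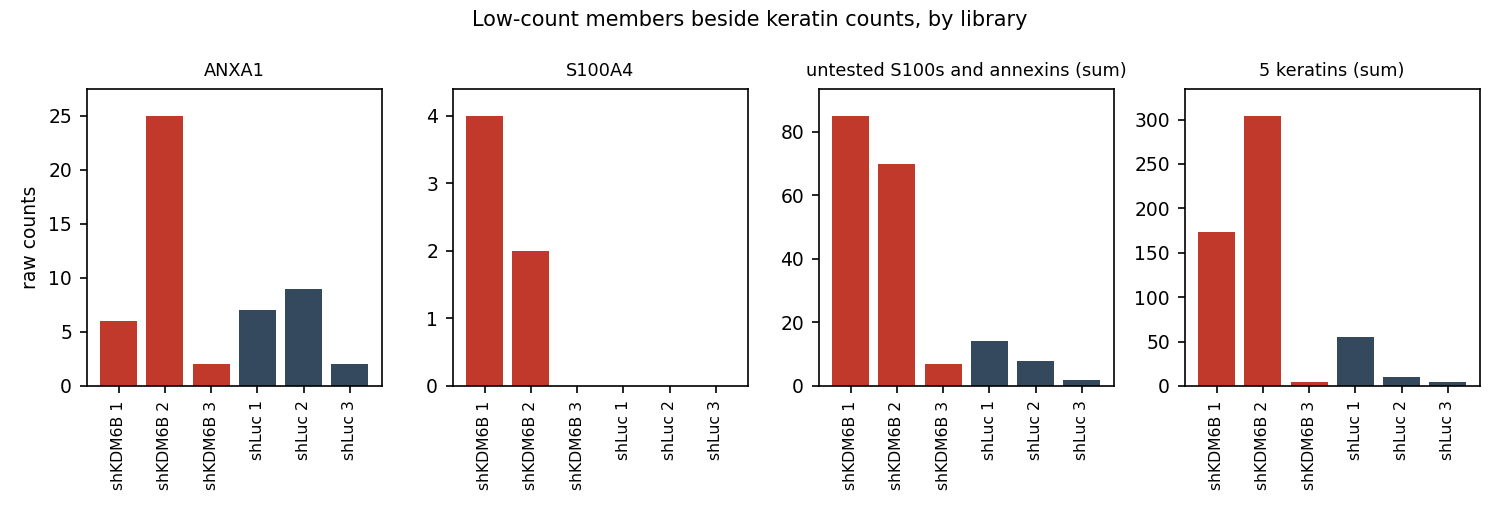
Raw counts (vertical axes, each panel with its own scale) by library of ANXA1, S100A4, the other S100 and annexin genes below the filter and 5 keratins, shKDM6B in red and shLuc in dark blue. The 20 other S100 and annexin genes below the filter summed to 85, 70 and 7 counts in shKDM6B replicates 1 to 3 and 14, 8 and 2 in shLuc replicates 1 to 3, and the keratins to 173, 304 and 4 in shKDM6B and 55, 10 and 4 in shLuc.

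Set against its partners within each library, AHNAK gained on all 7 tested ones. Its log2 fold change ranked 9 from the top of all genes tested, and AHNAK was chosen with that value in view. AHNAK would therefore gain on nearly any other tested gene. The ratios below restate the AHNAK change and show nothing particular to these partners. The log2 ratio of AHNAK to ANXA2 in CPM was 1.23, 1.52 and 1.60 in shKDM6B replicates 1 to 3 and -1.02, -0.84 and -0.80 in shLuc replicates 1 to 3. The log2 ratio of AHNAK to S100A10 averaged 3.18 ± 0.18 in shKDM6B and 1.08 ± 0.11 in shLuc (SD, n = 3 each), and the groups did not overlap in either ratio. In every shKDM6B library AHNAK had more counts than ANXA2, ANXA5 and ANXA7, and in every shLuc library it had fewer. The mean ratio differed by 4.29-fold against S100A10, the smallest of the 7 differences, and by 7.78-fold against AHNAK2, the largest.

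**Figure D4:**
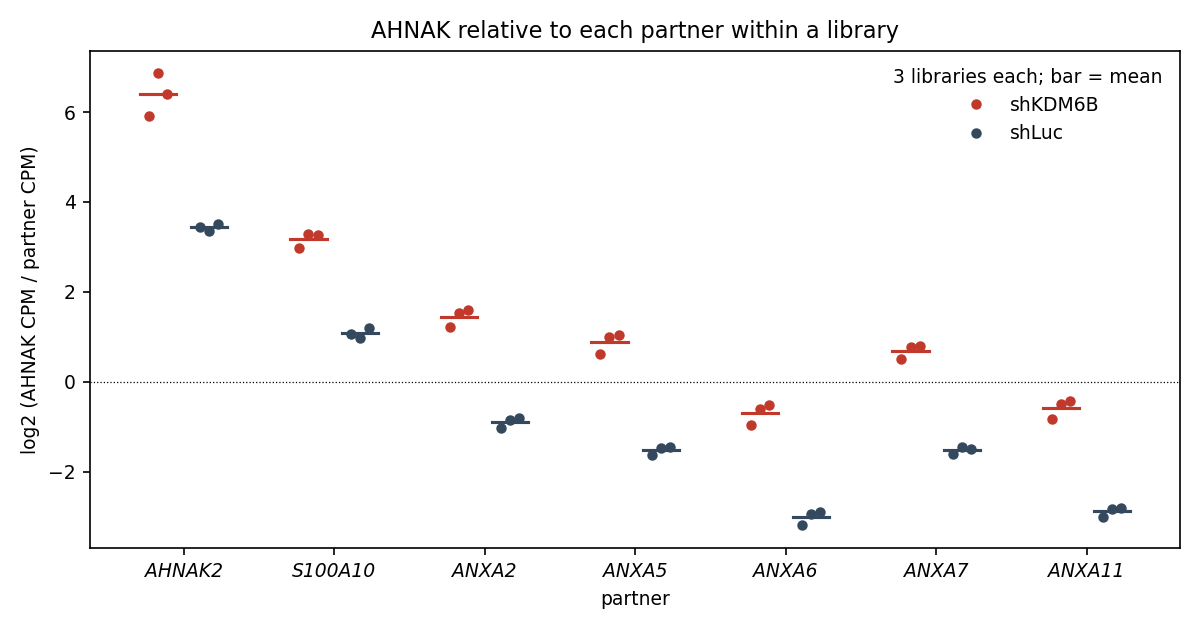
Log2 ratio of AHNAK to its partners in CPM by library, shKDM6B in red and shLuc in dark blue; points are libraries, bars are means of 3 and the dotted line marks equal CPM. Against ANXA2 the shKDM6B libraries lie at 1.23, 1.52 and 1.60 and the shLuc libraries at -1.02, -0.84 and -0.80, on either side of equal CPM.

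AHNAK has a very long transcript, so levels of different genes were compared per kilobase (kb) of exon. AHNAK stood at 11.4 ± 1.2 CPM per kb in shKDM6B and 2.31 ± 0.12 in shLuc (SD, n = 3 each), below 6 of its 7 tested partners and above AHNAK2. The members with too few counts to be tested, ANXA1 and S100A4, also lay below it. ANXA6 was highest, at 132 ± 8.1 CPM per kb in shKDM6B and 132 ± 8.2 in shLuc (SD, n = 3 each), and ANXA5, ANXA7, ANXA11, ANXA2, S100A10, AHNAK and AHNAK2 followed in this order in both groups, with the exons of the basic GENCODE 29 transcripts. With these exons ANXA11 and ANXA2 did not differ beyond their spread in either group, whereas every other pair of neighbours did. Per kb, the level of AHNAK relative to ANXA2 was 0.270 ± 0.036 in shKDM6B and 0.0531 ± 0.0042 in shLuc, and relative to S100A10 it was 0.596 ± 0.070 in shKDM6B and 0.139 ± 0.011 in shLuc (SD, n = 3 each). Of the summed CPM per kb of the tested members AHNAK made up 3.07 ± 0.42% in shKDM6B and 0.636 ± 0.051% in shLuc (SD, n = 3 each). These levels depend on the exons counted. With all annotated exons ANXA7 came before ANXA5 in both groups (47.5 ± 0.75 and 39.2 ± 2.1 CPM per kb in shKDM6B, 44.5 ± 0.31 and 41.8 ± 1.0 in shLuc). ANXA2 fell below S100A10 in both groups, with S100A10 at 15.7 ± 0.16 CPM per kb in shKDM6B and 13.6 ± 1.3 in shLuc. ANXA2 also lay far below ANXA11, at 38.7 ± 1.7 in shKDM6B and 38.3 ± 1.1 in shLuc. In shKDM6B ANXA5 and ANXA11 did not differ beyond their spread. AHNAK then stood at 11.3 ± 1.2 CPM per kb in shKDM6B, above ANXA2 at 9.09 ± 0.39, and at 2.28 ± 0.12 in shLuc, below ANXA2 at 9.32 ± 0.30 (SD, n = 3 each). Its level relative to ANXA2 became 1.25 ± 0.17 in shKDM6B and 0.245 ± 0.019 in shLuc, and relative to S100A10 0.723 ± 0.085 in shKDM6B and 0.168 ± 0.013 in shLuc (SD, n = 3 each). Its share of the summed CPM per kb became 4.99 ± 0.66% in shKDM6B and 1.06 ± 0.079% in shLuc (SD, n = 3 each). The difference of a gene between the groups does not depend on this choice.

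Of the 6 RefSeq genes next to AHNAK on chromosome 11, 4 were matched in the count tables and 1 had enough counts to be tested. TUT1, which adds uridines to small RNAs, stood at 40.0 ± 0.79 CPM in shKDM6B and 42.3 ± 0.87 CPM in shLuc (SD, n = 3 each) and was not past the threshold (log2 fold change -0.08, adjusted p = 0.328 by edgeR). The airway secretory gene SCGB1A1 was at 0 in all libraries, and the pseudogene RCC2P6 had 9 counts over shKDM6B and 8 over shLuc. EEF1G, a translation elongation factor that growing cells use, is listed at 1 count over shKDM6B and 0 over shLuc, so its row is not read as a level.

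The genes with the profile nearest to AHNAK over the 6 libraries, by Euclidean distance of centred log2 CPM among genes with a mean of at least 20 CPM, were AK4, SLC7A2, SLC6A9, OSTM1 and PLXNA2. The distance ran from 0.363 for AK4 to 0.953 for PLXNA2. AK4, a mitochondrial adenylate kinase, averaged 61.9 ± 3.1 CPM in shKDM6B and 10.9 ± 0.77 CPM in shLuc (SD, n = 3 each). SLC7A2, a transporter of cationic amino acids, averaged 36.4 ± 2.0 CPM in shKDM6B and 8.75 ± 1.2 CPM in shLuc (SD, n = 3 each). SLC6A9, a glycine transporter, averaged 49.0 ± 2.4 CPM in shKDM6B and 13.9 ± 0.68 CPM in shLuc (SD, n = 3 each). All 5 were higher in shKDM6B, as the choice by profile requires.

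Other annexins showed no call in the main fit. In this list 2 of the 8 listed genes had enough counts, and neither passed at an adjusted or an unadjusted p under 0.05 by edgeR, nor by DESeq2. ANXA4 stood at 50.8 ± 1.4 CPM in shKDM6B and 53.5 ± 1.2 CPM in shLuc (SD, n = 3 each) and ANXA9 at 12.5 ± 1.9 CPM in shKDM6B and 12.8 ± 1.3 CPM in shLuc (SD, n = 3 each). ANXA3, below the filter, had 4, 9 and 5 counts in shKDM6B replicates 1 to 3 and 1, 0 and 0 in shLuc replicates 1 to 3. With no filter on low counts 4 of the list were tested, and 1 was called higher.

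Among other S100 genes 5 of the 19 listed genes had enough counts to be tested. Of these 1 rose, 1 fell and 3 stayed short of the threshold, beside 20.1% higher and 18.9% lower over all genes. The median log2 fold change of these 5 was -0.35, beside -0.0053 over all genes. That median is the value of S100A1, which was not past the threshold and had 66 counts over shKDM6B and 81 over shLuc. S100A6 rose to 4.63 ± 0.52 CPM in shKDM6B, against 3.25 ± 0.48 CPM in shLuc, and S100Z fell to 3.17 ± 0.27 CPM in shKDM6B, against 4.59 ± 1.2 CPM in shLuc (SD, n = 3 each). Their adjusted p values by edgeR, 0.0493 and 0.0495, were at the threshold, the S100Z groups overlapped, and 12 and 10 of 16 alternatives lost the call. S100A11, the most abundant of the list, stood at 80.1 ± 5.8 CPM in shKDM6B and 82.8 ± 5.5 CPM in shLuc (SD, n = 3 each). Its log2 fold change was -0.049. The S100 and annexin genes below the filter had most of their counts in keratin libraries. More S100 genes were tested under some alternatives. Without shKDM6B replicate 3, 8 of the list were tested, 4 higher and 0 lower. Leaving out any 1 shLuc library also gave 8 tested, with 2 to 4 higher and 0 to 1 lower. In these fits the smaller group had 2 libraries, so the filter asked for enough counts in only 2 libraries. It thus let in genes with counts mainly in shKDM6B replicates 1 and 2. S100A2, for example, had 36, 16 and 0 counts in shKDM6B replicates 1 to 3 and 7, 3 and 1 in shLuc. Such genes enter through the group where they are high, so nothing is read from their calls. With no filter on low counts 12 were tested, 5 higher and 1 lower. S100A2 is itself on the epithelial list, and S100A8 and S100A9 are on the monocyte list, which summed to 2.62 to 4.78 CPM in shKDM6B and 1.65 to 2.48 CPM in shLuc; the part of such cells was not tested. Without the keratin libraries, 1 library against 2, 0 rose and 0 fell by edgeR, and 0 were higher and 1 lower at an unadjusted p under 0.05.

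Genes of proteins known to bind AHNAK, S100A10, S100A4 or an annexin moved in both directions. So did all genes tested, of which 20.1% were higher and 18.9% lower. Here 14 of the 24 listed genes had enough counts to be tested, and of these 4 rose, 2 fell and 8 stayed short of the threshold, with a median of 0.025. ASIC1, an acid-sensing channel that S100A10 helps to bring to the surface, rose to 12.6, 13.3 and 11.9 CPM in shKDM6B replicates 1 to 3, against 3.98, 3.84 and 3.20 CPM in shLuc replicates 1 to 3 (log2 fold change 1.78, SE 0.15, adjusted p = 4.63e-09 by edgeR). Its groups were far apart. PLCG1, a phospholipase C that AHNAK can activate, rose to 209.9 ± 3.6 CPM in shKDM6B, against 173 ± 1.8 CPM in shLuc (SD, n = 3 each). PPFIBP1, a liprin that binds S100A4, fell to 18.9 ± 1.6 CPM in shKDM6B, against 26.1 ± 2.5 CPM in shLuc (SD, n = 3 each). Their adjusted p values by edgeR were 9.13e-06 for PLCG1 and 0.000335 for PPFIBP1. CTSB, the protease cathepsin B, fell to 190.2 ± 2.8 CPM in shKDM6B, against 208 ± 6.2 CPM in shLuc (SD, n = 3 each; adjusted p = 0.0164 by edgeR), a call that was lost when libraries were scaled on sparsely covered genes (adjusted p = 0.527 by edgeR). It was also lost (adjusted p by edgeR) on leaving out the second (0.0588) or the third (0.0534) library of shKDM6B, or replicate 2 of shLuc (0.102). FPR1 and FPR2, receptors of ANXA1, were at 0 in every library. Without the keratin libraries, 1 library against 2, 2 rose and 2 fell.

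Of the genes of membrane repair 19 of the 26 listed genes had enough counts to be tested. Of these 4 rose, 1 fell and 14 stayed short of the threshold, beside 20.1% higher and 18.9% lower over all genes. The median log2 fold change was -0.0036. CAPN2, the catalytic subunit of a calcium-activated protease, rose to 213, 206 and 206 CPM in shKDM6B replicates 1 to 3, against 141, 141 and 139 CPM in shLuc replicates 1 to 3 (log2 fold change 0.57, SE 0.042, adjusted p = 3.52e-10 by edgeR). Its groups did not overlap. LGALS3, a galectin that gathers on damaged lysosomes, rose to 18.5 ± 0.86 CPM in shKDM6B, against 9.69 ± 0.31 CPM in shLuc (SD, n = 3 each; adjusted p = 3.97e-07 by edgeR). EHD1, an ATPase that shapes membranes, rose to 113 ± 3.5 CPM in shKDM6B, against 92.5 ± 2.9 CPM in shLuc, and the vesicle fusion protein VAMP7 fell to 67.4 ± 0.37 CPM in shKDM6B, against 76.4 ± 2.7 CPM in shLuc (SD, n = 3 each). The adjusted p values by edgeR were 2.36e-05 for EHD1 and 0.00482 for VAMP7, and VAMP7 did not pass without the keratin libraries (1 library against 2, 0.0545) or with scaling on sparsely covered genes (0.156). The ESCRT genes and adaptors CHMP2A, CHMP3, CHMP4A, CHMP4B, VPS4A, VPS4B, TSG101 and PDCD6IP had log2 fold changes from -0.41 to 0.12 and did not pass. Without the keratin libraries, 1 library against 2, 3 rose and 0 fell by edgeR, with 2 lower at an unadjusted p under 0.05.

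Of the plasminogen genes 5 of the 11 listed genes had enough counts to be tested. Of these 1 rose, 2 fell and 2 stayed short of the threshold, beside 20.1% higher and 18.9% lower over all genes. The median log2 fold change was -0.023. PLGRKT, a plasminogen receptor, fell to 11.8, 11.4 and 14.7 CPM in shKDM6B replicates 1 to 3, against 20.2, 22.5 and 18.8 CPM in shLuc replicates 1 to 3 (log2 fold change -0.68, SE 0.11, adjusted p = 4.24e-05 by edgeR). Its groups did not overlap. PLAT, the tissue plasminogen activator, rose to 2.40 ± 0.36 CPM in shKDM6B, against 1.18 ± 0.22 CPM in shLuc, and PLAUR, the urokinase receptor, fell to 1.72 ± 0.51 CPM in shKDM6B, against 2.86 ± 1.0 CPM in shLuc (SD, n = 3 each). Their adjusted p values were 0.00783 and 0.0450 by edgeR but 0.0650 and 0.148 by DESeq2, and the PLAUR groups overlapped. The PLAUR call was lost in 6 of 16 alternatives, among them DESeq2, limma-voom and limma-trend. The others left out the second (-0.72) or the third (-0.59) library of shKDM6B, or replicate 2 of shLuc (-0.42), against a log2 fold change of -0.77 with all libraries. Plasminogen itself (PLG) was at 0 in all libraries. Without the keratin libraries, 1 library against 2, 0 rose and 2 fell by edgeR, with 1 higher at an unadjusted p under 0.05.

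Of the cortical scaffolds and giant cytoskeletal proteins, the kind of protein AHNAK is, 19 of the 21 listed genes had enough counts to be tested. Of these 9 rose, 4 fell and 6 stayed short of the threshold, beside 20.1% higher and 18.9% lower over all genes. The median log2 fold change was 0.094. The actin crosslinker ACTN1 rose to 32.6 ± 1.6 CPM in shKDM6B, against 17.5 ± 2.4 CPM in shLuc, and the crosslinker FLNA rose to 584 ± 13 CPM in shKDM6B, against 425 ± 24 CPM in shLuc (SD, n = 3 each). The adjusted p values by edgeR were 6.23e-08 for ACTN1 and 1.47e-07 for FLNA. VCL, the adhesion protein vinculin, fell to 22.3, 26.0 and 25.5 CPM in shKDM6B replicates 1 to 3, against 49.2, 54.4 and 47.3 CPM in shLuc replicates 1 to 3 (log2 fold change -1.03, SE 0.075, adjusted p = 4.40e-10 by edgeR). Its groups did not overlap. ANK3, which links membrane proteins to spectrin, fell to 12.8 ± 1.2 CPM in shKDM6B, against 30.3 ± 3.3 CPM in shLuc (SD, n = 3 each; adjusted p = 2.17e-09 by edgeR). Of the other large proteins dystrophin (DMD) rose most, to 5.70 ± 0.98 CPM in shKDM6B, against 3.26 ± 1.3 CPM in shLuc (SD, n = 3 each), at a log2 fold change of 0.82 (adjusted p = 0.00840 by edgeR). DSP (0.19) and PLEC (0.17) rose by less, UTRN stood at -0.25 and fell past the threshold, and MACF1 (0.094) and DST (-0.17) did not pass. The DMD call was lost without shLuc replicate 2 and the UTRN call without shKDM6B replicate 1. The DSP and PLEC calls were each lost in 3 of 16 alternatives. Without the keratin libraries, 1 library against 2, 7 rose and 4 fell.

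**Figure D5:**
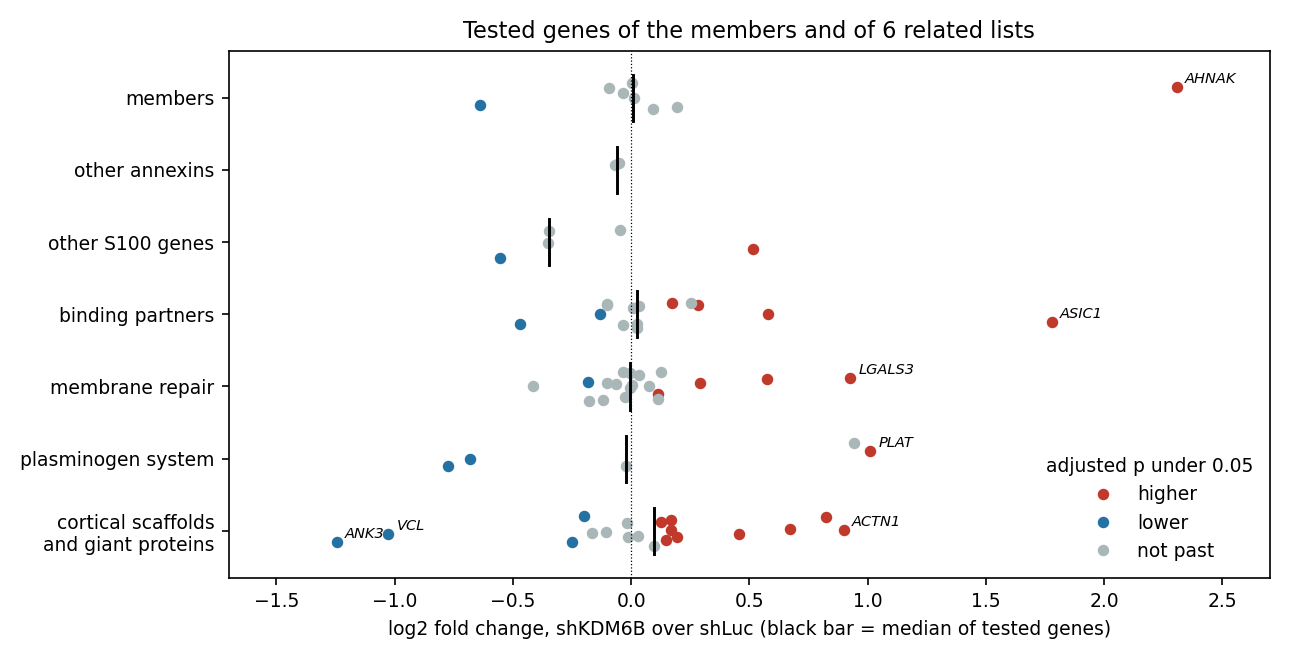
Log2 fold change of shKDM6B over shLuc of the tested members and of the tested genes of 6 related lists, 1 point per gene, red where called higher, blue where called lower and grey where not past the threshold; black bars are medians. AHNAK at 2.31 lies to the right of every other point, and ASIC1 at 1.78 comes next.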

How the data were processed

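Total RNA of MM.1S cells was sequenced in 6 libraries, and the design text gives 3 transductions per hairpin without saying that cultures stayed separate, so the spread between libraries may be technical. The deposited count files hold whole numbers per gene symbol, with 1 line per library lacking a count, which was left out. The submitters' processing notes name STAR, featureCounts, DESeq and GRCh37 (hg19); versions and settings are not part of those notes as used here. The authors' deposited normalized signal equals the counts times 1 factor per library and entered 1 alternative, as log2(value + 1).

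The test was edgeR's (version 4.0.16, R 4.3.3; filterByExpr, TMM, quasi-likelihood, group as the single term, 6 libraries, two-sided), with Benjamini-Hochberg adjustment over 13839 genes and a threshold of 0.05. The fit was checked on simulated counts in which far fewer genes changed than were called here. That check sets no bound on the share of false calls in these data. Levels are TMM-scaled CPM. Standard errors and intervals follow from the quasi-likelihood statistic. Replicates of a group differed beyond counting noise over sparsely covered genes (chi-square per degree of freedom 1.07 to 1.38). These were genes under 0.03 counts per base with at least 20 counts in the libraries compared, and other genes were not in this check. Exon lengths are from GENCODE 29, found for 63.1% of symbols, and promoters from RefSeq.

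The members, the 7 gene lists and the naming rules were chosen with earlier results of these data known. Named were all members, up to 4 called genes per list with the smallest p, the neighbours of AHNAK and the 5 nearest profiles; other list genes were chosen after their values were seen. Alternatives were other scalings (among them scaling on 2933 sparsely covered genes, under 0.03 counts per base), other filters, limma 3.58.1, DESeq2 1.42.0, a threshold of 0.01, a replicate block, fewer libraries and, chosen after seeing the data, levels with all annotated exons.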

Additional observations from a re-analysis of the deposited data

How the results depend on the processing

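AHNAK kept its direction and call under all 16 refits, at log2 fold changes of 2.25 to 2.39. With 1 library left out, 1 to 2 members were called higher and 0 to 2 lower. Of the list genes 11 to 23 were then higher, in some fits with S100 genes that passed the filter only there. Fold changes then ran over -0.77 to -0.49 for AHNAK2, 0.14 to 0.28 for S100A10, -0.13 to -0.051 for ANXA5, -0.065 to 0.0045 for ANXA2, -0.039 to 0.053 for ANXA6 and -0.017 to 0.048 for ANXA11. Without the keratin libraries 0 members were lower (1 library against 2; AHNAK2 -0.63, unadjusted p = 0.0640 by edgeR, with ANXA5 the 1 member lower at an unadjusted p under 0.05), 12 list genes were higher, and ANXA6 (-0.044) and ANXA11 (-0.038) changed sign, uncalled. DESeq2 gave 0 members lower (AHNAK2 -0.64; 1 unadjusted), 12 list genes higher and ANXA6 at -0.0010. At an adjusted p under 0.01 0 members were lower (1 unadjusted) and 12 list genes higher. Scaling on sparsely covered genes shifted the median of all genes by 0.061 and gave 2 members higher (S100A10 0.26), 6 list genes lower, 1741 genes lower in all and ANXA2 at 0.026, with 65.2% of calls higher against 51.5%. ANXA6 stood at -0.00099 with DESeq2 size factors and -0.016 with upper-quartile scaling, where ANXA11 stood at -0.0069. With the replicate block 2 members were higher and 2 lower, as ANXA7 (0.093) and ANXA5 (-0.095) passed. Deviations from the group mean correlated at 0.12, -0.076 and 0.15 between same-numbered libraries of the groups. Between differently numbered ones they correlated at -0.17 to 0.054. The labels do not say that the numbers pair the samples, and these few values cannot decide it. The cause of the changes between refits was not tested. Of the 29 list genes called, 12 kept their call under all 16 refits. Few counts limit AHNAK2, ANXA1 and S100A4.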
